A study of Mus musculus with 6 samples.

Results

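The genes described here are 10 that mark the stroma, bone and vessels of the marrow: Cxcl12, Lepr, Vcam1, Cdh5, Kdr, Lpl, Col1a1, Col1a2, Col3a1 and Sparc. They were taken as every probe set annotated to 1 of these symbols, which gave 25 probe sets for the 10 genes, out of 45037 probe sets and 18193 named genes on the array. RNA came from primary bone marrow of adult female mice, 6 to 16 weeks old, after mature blood cells had been removed by their lineage markers with flow sorting to enrich for stem and progenitor cells. The strains compared were B.D(Chr5), with 3 arrays, and C57B/L6, with 3 arrays, each array holding 1 biological replicate and no treatment being given. The name of the first strain points to chromosome 5 and 1 of its labels reads only B.D; the labels do not say how it was bred, nor whether RNA was pooled over mice. A p-value here therefore reflects only how far these 6 samples scatter, which may be technical.

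The marrow niche is the set of non-blood cells that house and feed haematopoietic stem cells. Reticular stromal cells that carry the leptin receptor make the chemokine CXCL12, which holds stem cells in place through its receptor CXCR4, and some of them can become fat or bone cells. Osteoblasts lay down type I collagen, and sinusoidal endothelial cells line the vessels through which blood cells leave. None of these cells belongs to a haematopoietic lineage, so antibodies against blood lineage markers do not remove them by design. In RNA from a mixed sample, fewer cells of a type and less RNA per cell cannot be told apart.

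Values are MAS5 signals, an intensity per probe set on a linear scale, with the same trimmed mean on every array. Array medians ranged from 65.0 to 79.5. The background of an array was taken as the 95th percentile of its 27 bacterial control probe sets, which ranged from 21.8 to 38.0. Of 11 measured markers of stem and progenitor cells, 11 were above background on every array, with Kit signals of 4064, 5552 and 4060 in B.D(Chr5) and 5338, 4184 and 5252 in C57B/L6. Of 7 measured antigens of mature lineages, 6 were also above background on every array, among them the pan-leukocyte gene Ptprc, which progenitors express too, and Cd4 was on none. Across 22518 probe sets tested with limma, 41 (0.182%) passed an adjusted p of 0.05, of which 21 (0.0933% of those tested) were higher in B.D(Chr5). Probe sets of the niche genes made up 0 of them, while 6 had an unadjusted p under 0.05, a level that 4.73% of all tested probe sets passed.

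The signals of the niche genes varied widely between arrays of the same strain. B.D(Chr5) replicate 2 had the highest signal of the 6 arrays for 8 of the 10 genes, and C57B/L6 replicate 2 had the lowest for 7 of the 10, both counted on the brightest probe set for the gene. Over all tested probe sets these arrays were highest and lowest in 16.9% and 17.1% of cases. Both held at once for Cxcl12, Lepr, Col1a1, Col1a2 and Sparc, a combination found in 4.18% of all tested probe sets. As the median over the 10 genes, the arrays deviated from a gene's own mean by 0.20, 0.72 and 0.26 on the log2(signal + 16) scale in B.D(Chr5) and by 0.22, -1.23 and -0.48 in C57B/L6. C57B/L6 replicate 1 thus lay at the level of B.D(Chr5) replicates 1 and 3, and the low values of its strain came from the other two arrays.

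**Figure D1:**
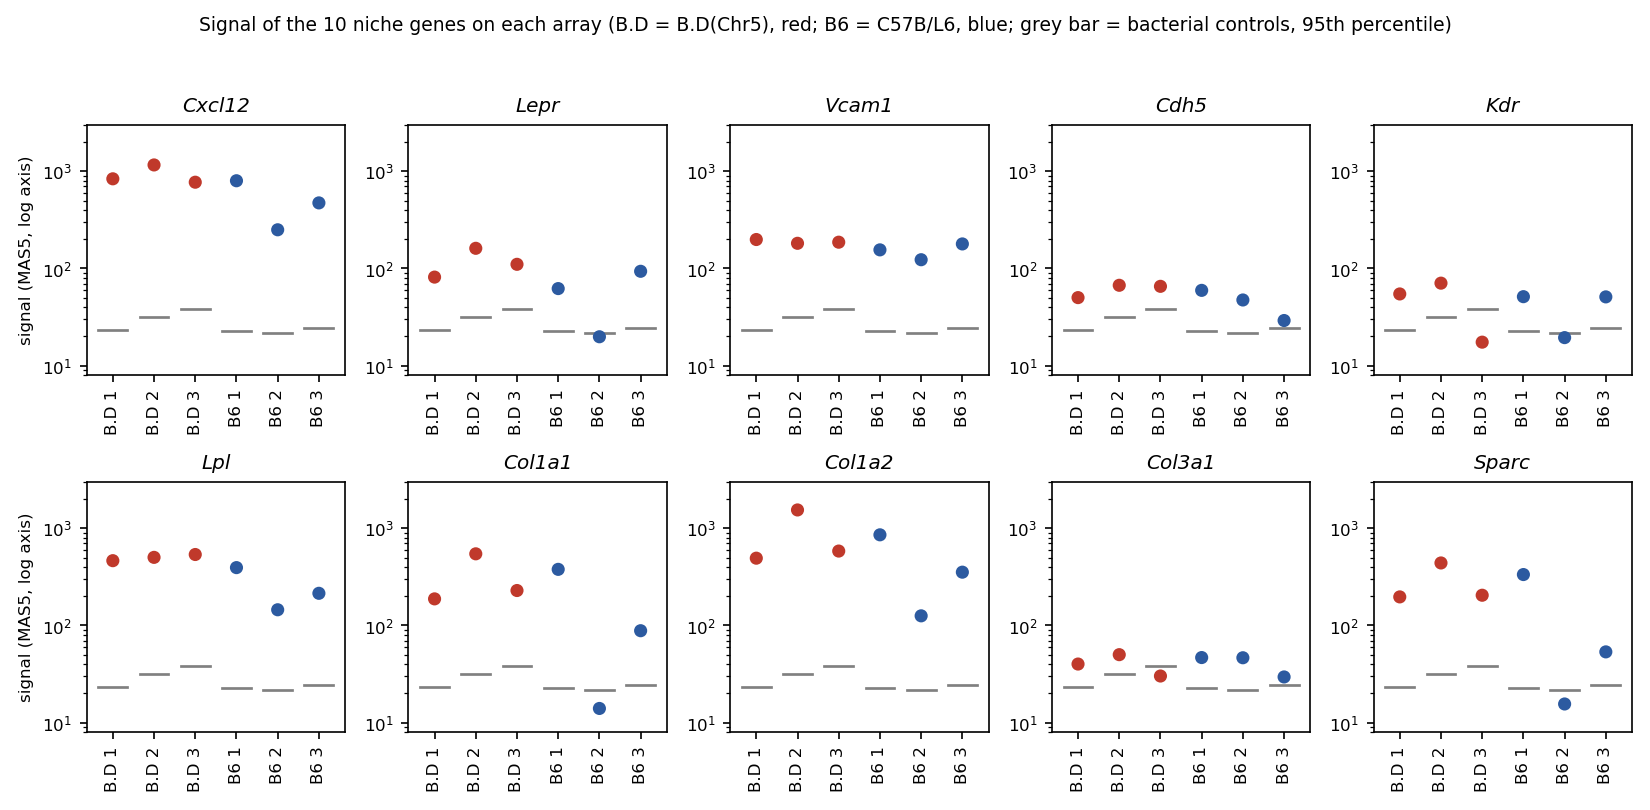
MAS5 signal (log axis) of the brightest probe set of each of the 10 genes on the 3 B.D(Chr5) arrays (red) and the 3 C57B/L6 arrays (blue); grey bars give the background of the array from its bacterial controls. Col1a1 reached 547 on B.D(Chr5) replicate 2 and 14.0 on C57B/L6 replicate 2, whereas Vcam1 stayed between 123 and 199.

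A value of sample quality varied over the same arrays. The signal of the 5′ probe set for 18S ribosomal RNA, which reads residual ribosomal RNA, was 1726, 20010.3 and 12553.9 in B.D(Chr5) and 13057.8, 2454 and 6306 in C57B/L6. From highest to lowest the arrays ran B.D(Chr5) replicate 2, C57B/L6 replicate 1, B.D(Chr5) replicate 3, C57B/L6 replicate 3, C57B/L6 replicate 2 and B.D(Chr5) replicate 1. Apart from B.D(Chr5) replicate 1, this is the order of the arrays for the brightest probe sets of Col1a1, Col1a2 and Sparc. On B.D(Chr5) replicate 1, where 18S was lowest, the median deviation of the niche genes was 0.20. The 3′ to 5′ signal ratio of the Gapdh control was 0.788, 0.845 and 0.843 in B.D(Chr5) and 0.806, 0.742 and 0.830 in C57B/L6. It was thus highest on B.D(Chr5) replicate 2 and lowest on C57B/L6 replicate 2, with B.D(Chr5) replicate 3 next to the highest. For the actin control it was 1.14, 1.20 and 1.20 in B.D(Chr5) and 1.20, 1.20 and 1.21 in C57B/L6. The part of these values in the result was not tested.

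To show what the genes look like at their starts, the windows from 250 bases before to 50 bases after the annotated start are printed. They are given for 3 genes that followed these arrays (Cxcl12, Col1a2 and Sparc). The other window is that of Col3a1, which was highest on B.D(Chr5) replicate 2 but not lowest on C57B/L6 replicate 2. The sequences are from RefSeq on build GRCm38.p6, which held windows for 6 of the 10 genes, and lie at chr6:117168285-117168584 (plus strand), chr6:4505368-4505667 (plus), chr11:55420031-55420330 (minus) and chr1:45311288-45311587 (plus). Capitals mark matches to 3 motifs, each searched on both strands. The CCAAT box was searched by the letters of its name. The GC box was searched as GGGCGG, a motif that Sp family factors bind. The core of the TATA box, an element upstream of the start in some promoters, was searched as TATAAA.
Cxcl12: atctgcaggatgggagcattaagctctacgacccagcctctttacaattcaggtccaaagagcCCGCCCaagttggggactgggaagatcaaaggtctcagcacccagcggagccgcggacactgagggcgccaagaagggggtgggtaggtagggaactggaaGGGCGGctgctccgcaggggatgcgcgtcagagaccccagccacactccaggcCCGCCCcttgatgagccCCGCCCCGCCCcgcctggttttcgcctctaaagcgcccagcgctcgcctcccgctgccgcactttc
Col1a2: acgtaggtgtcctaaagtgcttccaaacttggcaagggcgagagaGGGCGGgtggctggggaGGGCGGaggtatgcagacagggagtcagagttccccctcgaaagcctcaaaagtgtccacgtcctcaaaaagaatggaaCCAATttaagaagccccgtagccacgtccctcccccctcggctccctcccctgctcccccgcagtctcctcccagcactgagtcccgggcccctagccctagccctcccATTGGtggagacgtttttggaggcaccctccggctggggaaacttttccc
Sparc: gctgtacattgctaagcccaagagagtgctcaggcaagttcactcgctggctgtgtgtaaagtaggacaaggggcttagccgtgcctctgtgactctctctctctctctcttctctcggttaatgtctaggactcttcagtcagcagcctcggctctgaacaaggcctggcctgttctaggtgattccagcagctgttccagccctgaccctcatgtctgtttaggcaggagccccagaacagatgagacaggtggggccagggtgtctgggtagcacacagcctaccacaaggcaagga
Col3a1: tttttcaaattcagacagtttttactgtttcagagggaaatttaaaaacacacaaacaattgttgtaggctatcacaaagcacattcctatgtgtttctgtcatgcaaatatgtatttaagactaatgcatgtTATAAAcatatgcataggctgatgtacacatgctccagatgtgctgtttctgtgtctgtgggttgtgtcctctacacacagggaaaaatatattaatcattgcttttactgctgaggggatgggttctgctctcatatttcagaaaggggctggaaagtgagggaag
The Cxcl12 window holds 5 matches to the GC box, of which 2 overlap by 1 base. The Col1a2 window holds 2 matches to the CCAAT box and 2 to the GC box, the Sparc window has 0 matches to any of the 3, and the Col3a1 window has 1 match to the TATA box. Of 32851 such windows over all genes, 37.4% hold the CCAAT box, 35.7% the GC box and 13.6% the TATA box. No motif of the 3 was in the windows of all 3 printed genes that followed the same arrays. Lepr, with the same extreme arrays, has windows that are not printed. Of these, 1 holds 1 match to the CCAAT box and another holds 1 match to the GC box.

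Cxcl12, the chemokine that keeps stem cells in the marrow, was well above background on every array. Its brightest probe set read 838, 1164 and 773 in B.D(Chr5), against 800.3, 250.3 and 473 in C57B/L6. The strains overlapped, since C57B/L6 replicate 1 was above B.D(Chr5) replicate 3. Cxcl12 averaged 925 ± 210 in B.D(Chr5) and 508 ± 277 in C57B/L6 (SD, n = 3 arrays each). The log2 difference was 0.97 (SE 0.34, 95% interval 0.21 to 1.73) and missed the threshold over all probe sets (limma adjusted p = 0.904). It was 0.55 without C57B/L6 replicate 2. A second probe set gave 506, 755 and 523 in B.D(Chr5), against 509, 121 and 273 in C57B/L6, with the same array highest and the same lowest. The remaining probe set stayed between 1.91 and 11.4, under the background of each array.

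Lepr encodes the leptin receptor, the surface marker by which reticular stromal cells of adult marrow are often recognised. Its brightest probe set read 81.5, 161 and 110 in B.D(Chr5), against 62.1, 19.8 and 93.6 in C57B/L6. C57B/L6 replicate 2 was below its background, and C57B/L6 replicate 3 lay among the B.D(Chr5) arrays. Its log2 difference, 0.94 (SE 0.41), did not pass (limma adjusted p = 1.00) and became 0.49 without C57B/L6 replicate 2. Of the 4 Lepr probe sets, 1 was bright enough to be tested. Its mean was 118 in B.D(Chr5) and 58.5 in C57B/L6, so it met the brightness cut of 69.4 through B.D(Chr5). A second had its extremes on the same arrays, with 106 on B.D(Chr5) replicate 2 and 18.0 on C57B/L6 replicate 2. The other two did not, and 1 of them was lowest on B.D(Chr5) replicate 2, at 12.7, and highest on C57B/L6 replicate 2, at 57.9. The value of Lepr thus depends on which of its probe sets is read.

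Vcam1 encodes an adhesion molecule that stromal and endothelial cells, and some macrophages, show to integrins on blood cells. The brightest of its 3 probe sets read 199, 182 and 186 in B.D(Chr5), against 155, 123 and 179 in C57B/L6. All 3 B.D(Chr5) arrays were above all 3 C57B/L6 arrays, which was also so for the next brightest, with 182, 186 and 229 in B.D(Chr5) and 164, 87.7 and 151 in C57B/L6. In all, the strains did not overlap for 2 of the 10 genes (Vcam1 and Lpl), while 9.38% of all tested probe sets were separated in this way in either direction and 4.14% with B.D(Chr5) above. These probe sets had log2 differences of 0.30 (SE 0.18) and 0.55 (SE 0.23), with limma adjusted p = 1.00 for both. The brightest gave 0.16 without C57B/L6 replicate 2. The dimmest probe set, at 38.4, 55.5 and 94.5 in B.D(Chr5) and 44.5, 88.6 and 38.2 in C57B/L6, overlapped. The profile of Vcam1 was flatter than that of Cxcl12, spanning 0.63 on the log2 scale over the 6 arrays against 2.15.

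Vcam1 differed from the other 9 genes in its place in the genome. On chromosome 3 it lies, in the RefSeq gene order, between Slc30a7 and Rwdd3, both of which passed the test in these arrays. Slc30a7 had a log2 change of 0.77 (SE 0.12, limma adjusted p = 0.0472) and Rwdd3 one of 1.02 (SE 0.14, limma adjusted p = 0.0287), and 1 tested gene separates Vcam1 from Slc30a7. The tested genes between Vcam1 and Rwdd3 were not counted. Kdr, the 1 niche gene on chromosome 5, had 64 tested genes between it and Lcorl, the nearest gene that passed. For Cxcl12 and Col1a2 the nearest was Igkv9-120, with 192 and 180 tested genes between. For Col3a1 it was Slamf1, with 393 between. The chromosomes of Lepr, Cdh5, Lpl, Col1a1 and Sparc held 0 genes that passed. Whether these places bear on the values of the niche genes was not tested.

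Cdh5 and Kdr stand for endothelium. Cdh5 encodes VE-cadherin, which joins endothelial cells to each other, and Kdr encodes the main VEGF receptor of these cells. Both were too dim for the test, which took the upper 50% of probe sets by mean signal. Cdh5 read 50.1, 67.2 and 65.5 in B.D(Chr5), against 59.5, 47.4 and 29.1 in C57B/L6. It was above background on every array, the strains overlapped, and its lowest array was C57B/L6 replicate 3. Kdr read 54.7, 70.6 and 17.4 in B.D(Chr5), against 51.3, 19.4 and 51.0 in C57B/L6. Here 1 array of each strain was below background. In the fit over all probe sets without the brightness filter, the log2 change was 0.35 for Cdh5 (95% interval -0.34 to 1.04) and 0.12 for Kdr (-0.86 to 1.09), with limma adjusted p = 1.00 for both. The second Cdh5 probe set was above background on 1 array of each strain. The sign for Kdr turned with 1 array left out: -0.011 without B.D(Chr5) replicate 1, -0.16 when B.D(Chr5) replicate 2 was left out and -0.19 when C57B/L6 replicate 2 was.

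Lpl encodes lipoprotein lipase, which frees fatty acids from blood lipoproteins and is made by adipogenic stroma and by macrophages. It read 465, 503 and 538 in B.D(Chr5), against 394, 145 and 214 in C57B/L6. All 3 B.D(Chr5) arrays were above all 3 C57B/L6 arrays, and within B.D(Chr5) the values lay close together. Lpl averaged 502 ± 36.6 in B.D(Chr5) and 251 ± 129 in C57B/L6 (SD, n = 3 arrays each), a log2 difference of 1.06 (SE 0.28, 95% interval 0.42 to 1.70). Its adjusted p, 0.553 in limma, was the smallest of the 10 genes and did not pass. It was 0.0908 with the arrays centred on their medians. Without C57B/L6 replicate 1 the change was 1.42 and passed (limma adjusted p = 0.0462); with any other array left out the limma adjusted p was at least 0.493. The second probe set read 106, 129 and 116 in B.D(Chr5), against 123, 40.5 and 103 in C57B/L6, so that the strains overlapped and only C57B/L6 replicate 2 stood apart. For it the log2 difference was 0.44 (SE 0.33, limma adjusted p = 1.00).

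Col1a1 and Col1a2 encode the chains of type I collagen, the main protein of bone, and Sparc encodes osteonectin, a collagen-binding matrix protein that osteoblasts and also megakaryocytes make. These 3 genes had the widest spans between arrays of the 10, also where a value below background is replaced by the background. Col1a1 read 188, 547 and 229 in B.D(Chr5), against 378, 14.0 and 88.4 in C57B/L6. Its lowest array was below background, and the highest was at least 25.1-fold above the background of that array. Col1a2 read 493, 1547 and 584 in B.D(Chr5), against 858, 126 and 354 in C57B/L6, a 12.3-fold span. Sparc read 197, 440.2 and 205 in B.D(Chr5), against 334, 15.6 and 53.5 in C57B/L6, again with the lowest array below background and a span of at least 20.2-fold by the same bound. In each of the 3, C57B/L6 replicate 1 was above B.D(Chr5) replicates 1 and 3, so the strains overlapped.

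Further probe sets of these genes were read as well. The second of Col1a1 read 220, 479 and 197 in B.D(Chr5), against 293, 34.3 and 88.2 in C57B/L6. The second of Col1a2 read 269.6, 812 and 281 in B.D(Chr5), against 421 on C57B/L6 replicate 1, 56.8 on replicate 2 and 142 on replicate 3. The next of Sparc read 114, 341 and 203 in B.D(Chr5), against 250.04, 35.6 and 116 in C57B/L6. All 3 were again highest on B.D(Chr5) replicate 2 and lowest on C57B/L6 replicate 2. The dimmest of Sparc was lowest on the same array, at 21.6, but highest on B.D(Chr5) replicate 3, at 81.7, and the dimmest of Col1a2 was below background throughout.

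For the brightest probe set of all 3 matrix genes, the interval of the difference between the strains held 0. The log2 change was 1.503 for Col1a1 with a 95% interval of -0.23 to 3.24, 1.13 for Col1a2 with -0.22 to 2.48, and 1.60 for Sparc with -0.023 to 3.22 (limma adjusted p = 1.00 for each). The second Col1a1 probe set gave 1.31 with an interval of 0.024 to 2.61, which did not hold 0, and did not pass after adjustment either (limma adjusted p = 1.00). The second of Col1a2 gave 1.27 (-0.082 to 2.62). The next of Sparc gave 0.83 (-0.40 to 2.06), less than its brightest. Without C57B/L6 replicate 2 the brightest probe sets' changes were 0.58, 0.46 and 0.83, and without C57B/L6 replicate 1 they were 2.44, 1.77 and 2.57. Without B.D(Chr5) replicate 2, Col1a2 had a change of 0.63. With both arrays numbered 2 left out, which was chosen after the values were seen, the changes were 0.14, -0.041 and 0.47.

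The array order was shared in detail. From highest to lowest, B.D(Chr5) replicate 2 and then C57B/L6 replicate 1 led, and C57B/L6 replicate 3 and then C57B/L6 replicate 2 came last, in 6 of the 25 probe sets: both of Col1a1, 2 of 3 of Col1a2, 1 of 3 of Sparc and 1 of 2 of Lpl. That order was found in 0.488% of all tested probe sets. As a measure of how alike 2 genes were, the root mean square difference between their deviations over the 6 arrays was taken on the log2 scale. It was smallest for Col1a1 with Sparc, at 0.23, and for Cxcl12 with Lpl, also at 0.23. On the log2(signal + 16) scale, from lowest to highest array, Col1a1 and Sparc spanned 4.23 and 3.85, with the lowest below background, and Cxcl12 and Lpl 2.15 and 1.78. It was largest for Col1a1 with Col3a1, at 1.37.

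**Figure D2:**
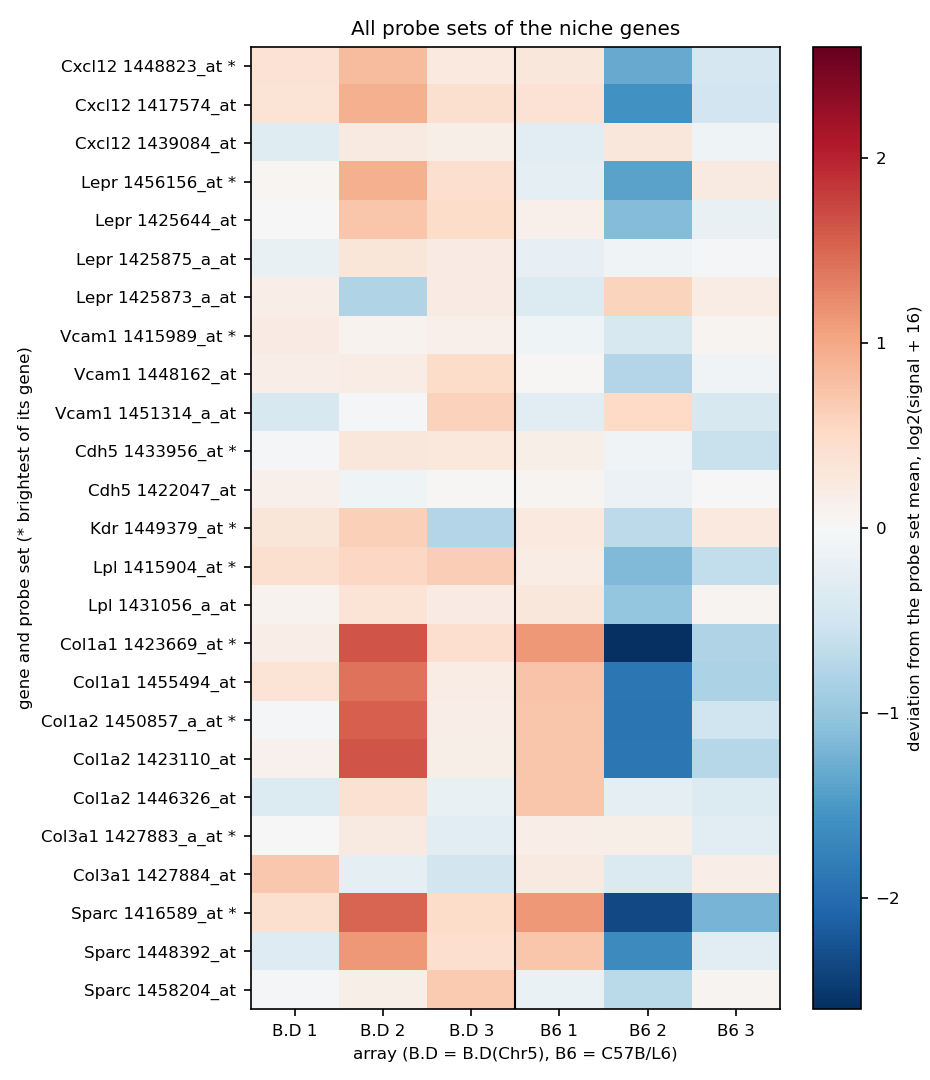
Deviation of each of the 25 probe sets from its own mean over the 6 arrays (colour, log2(signal + 16) scale), with B.D(Chr5) arrays left of the line and C57B/L6 arrays right of it; an asterisk marks the brightest probe set of a gene. The darkest blue cells are in C57B/L6 replicate 2, where 16 of the 25 probe sets were lowest, and the darkest red cells in B.D(Chr5) replicate 2, where 15 were highest.

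Col3a1 shared only the high end of this pattern, as B.D(Chr5) replicate 2 and then C57B/L6 replicate 1 led on its brighter probe set. It encodes the chain of type III collagen, which fibroblasts and vessel walls deposit. Its brighter probe set read 40.1, 50.1 and 30.2 in B.D(Chr5), against 46.8, 46.5 and 29.5 in C57B/L6, and 1 of the 6 values was below background. C57B/L6 replicate 2 was level with replicate 1, unlike in the genes of type I collagen. It was too dim for the test. Without the filter the log2 change was -0.021, with a 95% interval of -0.70 to 0.66 (limma adjusted p = 1.00), and it was 0.11 without B.D(Chr5) replicate 3, 0.057 without C57B/L6 replicate 1 and 0.055 without C57B/L6 replicate 2. The added 16 compresses differences at this brightness. The other probe set was above background on 1 of the 6 arrays.

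Over the list, 9 of the 10 genes and 21 of the 25 probe sets had a positive log2 change, against 50.2% of all tested probe sets. The median over the 10 genes was 0.96, and that over all tested probe sets was 3.6e-04. Only 7 of the genes and 13 of their probe sets were bright enough for the test, so these counts include values near background. All 6 probe sets with an unadjusted limma p under 0.05 were higher in B.D(Chr5), as were 2.18% of all tested, and 0 passed after adjustment. The probe sets of a gene, and the 10 genes, were read on the same 6 arrays, so 1 unusual array moves them together. Leaving out C57B/L6 replicate 2 gave a median of 0.47, leaving out B.D(Chr5) replicate 2 gave 0.67, and leaving out both gave 0.23.

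**Figure D3:**
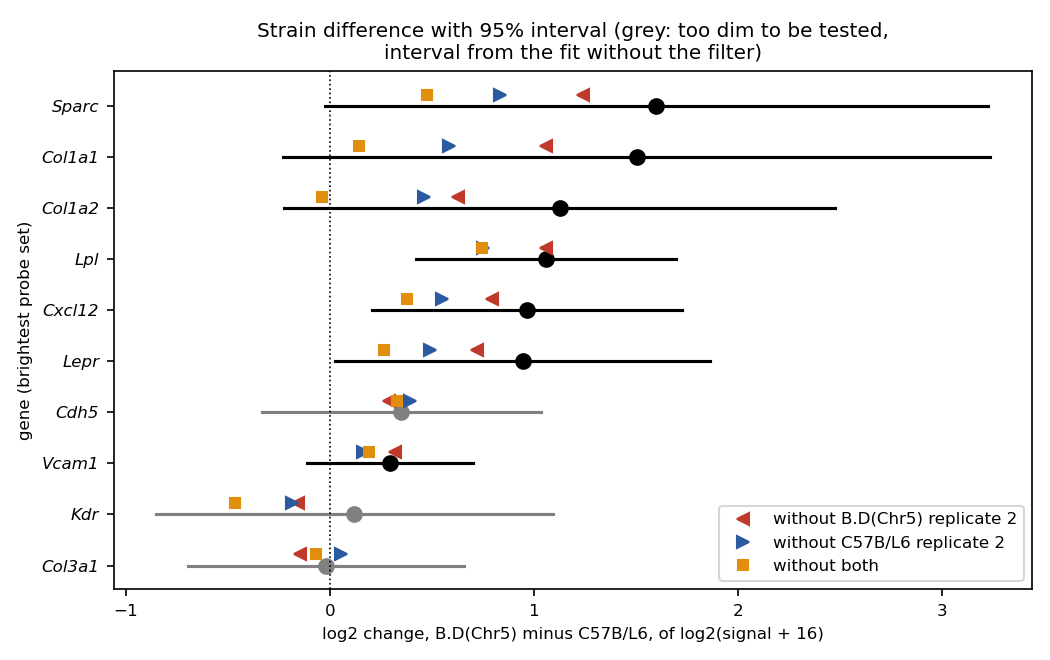
Difference between the strains (B.D(Chr5) minus C57B/L6, log2(signal + 16) scale) for each gene's brightest probe set and its 95% interval; grey marks the 3 genes that were too dim for the test. Triangles and squares give the value without 1 or both arrays numbered 2. Without both, Col1a2 is at -0.041 and Lpl at 0.75.

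Other genes of the same cells were read from lists. Of 19 measured genes of reticular and adipogenic stroma, 12 were tested and 0 passed in limma in either direction. An unadjusted p under 0.05 was found for 4, beside 4.73% of all tested probe sets. Of the 19, 14 were positive and 5 negative, with a median log2 change of 0.38. Among the negative ones were Apoe (-0.41), Angpt1 (-0.26) and Pdgfrb (-0.19). Igfbp5, which encodes a binding protein of insulin-like growth factors, read 236, 394 and 314 in B.D(Chr5), against 203, 50.3 and 150.3 in C57B/L6. Serping1, the C1 inhibitor gene, read 141, 167 and 134 in B.D(Chr5), against 114, 50.5 and 91.5 in C57B/L6. For both, all B.D(Chr5) arrays were above all C57B/L6 arrays, and so they were for Kitl and Cxcl14. Over all tested probe sets this held for 4.14%, and for 9.38% in either direction. Pdgfrb separated the other way, at 541, 614 and 564 in B.D(Chr5) against 618, 648 and 694 in C57B/L6. The log2 differences of Igfbp5 and Serping1, 1.27 and 0.74, did not pass (limma adjusted p = 0.753 and 0.913). Both belong to the 7 of 19 genes of the list that were highest on B.D(Chr5) replicate 2 and lowest on C57B/L6 replicate 2. That combination was found in 4.18% of all tested probe sets.

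Among genes of bone and other matrix, 0 passed. Of 14 measured genes of osteoblasts and bone, 2 were above background on every array and 3 were tested; 0 passed in limma, 2 had an unadjusted p under 0.05, and the median log2 change was 0.32. Mmp13, a collagenase of osteoblast-lineage cells and hypertrophic cartilage, read 112, 99.4 and 144 in B.D(Chr5), against 43.1, 11.03 and 14.5 in C57B/L6. The strains did not overlap for it, a separation with B.D(Chr5) above that 4.14% of all tested probe sets showed. But 2 of the C57B/L6 values were below background, and the change did not pass (log2 change 1.87, SE 0.35, limma adjusted p = 0.152). Mmp13 averaged 118 in B.D(Chr5) and 22.9 in C57B/L6, so it met the brightness cut of 69.4 only through B.D(Chr5). Ibsp, bone sialoprotein, read 165, 334 and 150.1 in B.D(Chr5), against 173, 45.6 and 113 in C57B/L6. It was the 1 gene of the 14 that was highest on B.D(Chr5) replicate 2 and lowest on C57B/L6 replicate 2. The median deviation of the bone list was -0.22 on C57B/L6 replicate 2 and lower, at -0.40, on C57B/L6 replicate 3. Of 19 other matrix genes, 9 were tested, 0 passed and 2 had an unadjusted p under 0.05, with a median of 0.26. Of the 19, 2 were highest on B.D(Chr5) replicate 2 and lowest on C57B/L6 replicate 2, beside 4.18% of all tested probe sets. The examples by smallest p were Col6a2, a chain of type VI collagen with a log2 change of 0.55, and Tnc, tenascin C, with 0.86. Tnc averaged 130 in B.D(Chr5) and 66.5 in C57B/L6, so it too met the brightness cut only through B.D(Chr5). Of 15 genes of collagen folding and crosslinking, many of which every secretory cell uses, 11 were tested, 0 passed, 0 had an unadjusted p under 0.05 and the median was 0.13. Plod1, a lysyl hydroxylase, had a log2 change of 0.50 and Ppib, a prolyl isomerase, 0.13.

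Among other endothelial genes, 0 passed the test. Of 20 measured, 17 were above background on every array, 13 were tested, with 1 at an unadjusted p under 0.05 and a median log2 change of -0.060. Of the 20 genes, 3 (Robo4, Cldn5 and Nos3) were highest on B.D(Chr5) replicate 2, 1 (Flt4) was lowest on C57B/L6 replicate 2 and 0 were both, beside 16.9%, 17.1% and 4.18% of all tested probe sets. Stab2, a scavenger receptor of sinusoidal endothelium, read 150, 158 and 167 in B.D(Chr5), against 177, 235 and 268 in C57B/L6, with a log2 change of -0.46 that did not pass (limma adjusted p = 0.988). Egfl7 had a log2 change of -0.22. Several genes of this list, such as Pecam1, Eng and Erg, are also active in stem and progenitor cells.

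Receptors and other partners of the niche proteins, some of them made by blood cells and some by other cells, were read in the same mixed RNA. Of 16 receptor and partner genes 11 were tested, 0 passed, 0 had an unadjusted p under 0.05, and the median log2 change was -0.072. Cxcr4, the receptor for CXCL12, read 4929, 4130.1 and 5373 in B.D(Chr5), against 4106, 4053 and 4407 in C57B/L6, with a log2 change of 0.19 (SE 0.10, limma adjusted p = 1.00). Its 6 values spanned far less than those of Cxcl12. Ctnnd1, the p120 catenin that binds cadherins, had a log2 change of -0.26, and Lep and Ackr3 were below background on every array.

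**Figure D4:**
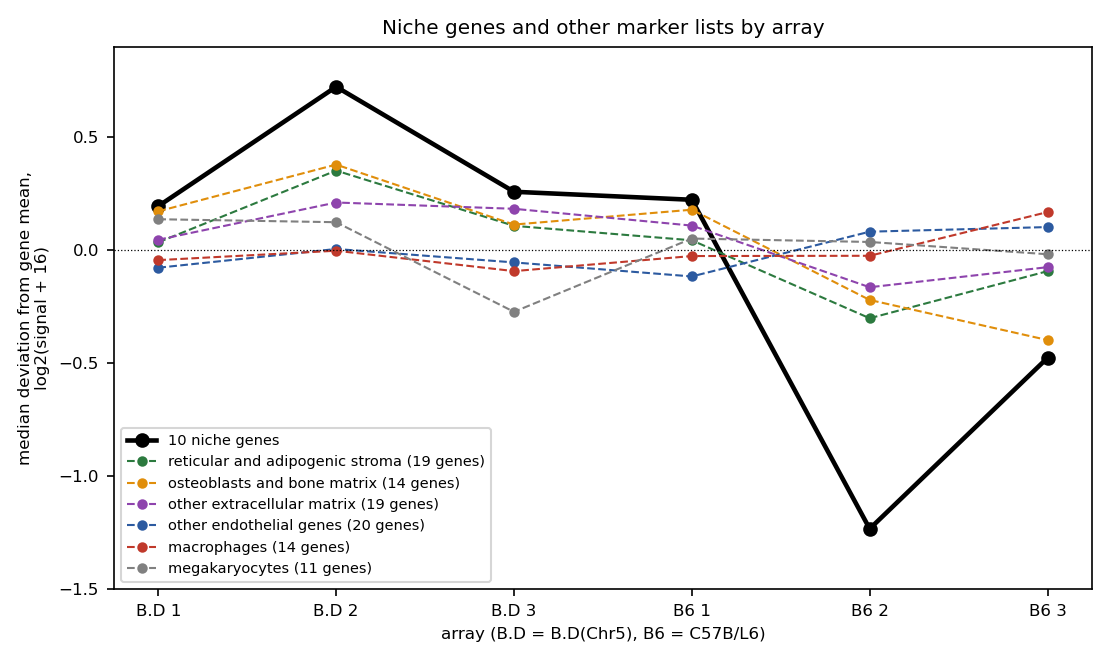
Median deviation from a gene's own mean (log2(signal + 16) scale) on each array for the 10 niche genes (black) and 6 other lists, with B.D(Chr5) arrays left and C57B/L6 arrays right. The niche genes go to 0.72 on B.D(Chr5) replicate 2 and -1.23 on C57B/L6 replicate 2; the reticular stroma list goes to 0.35 and -0.30 and the endothelial list to 0.0057 and 0.082.

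Vcam1 and Lpl are also made by macrophages and Sparc by megakaryocytes, and markers of these cells were read on the same arrays. Of 14 macrophage genes, 8 were above background on every array and C1qa was on none; their summed signal ran from 10187 to 12711 in B.D(Chr5) and from 9884 to 11490.4 in C57B/L6, and 0 of 6 tested passed (0 at an unadjusted p under 0.05, median log2 change -0.084). Csf1r and Slc40a1, which other marrow cells express too, made up 85.3% to 87.0% of that sum in B.D(Chr5) and 85.4% to 87.8% in C57B/L6. Of the markers closer to macrophages, C1qb, Adgre1, Axl, Cd163 and Mrc1 were above background on all 6 arrays. C1qc was on 1 array, and Cd5l and Mertk were on 4 each. Adgre1, the F4/80 gene, had a log2 change of 0.46 and Axl one of -0.28. Of 11 megakaryocyte genes, 10 were above background on every array; the sum ran from 4518 to 6776 in B.D(Chr5) and from 5617 to 6701 in C57B/L6, and 0 of 10 passed (0 at an unadjusted p under 0.05, median -0.11). Pf4, platelet factor 4, read 3055, 3630.4 and 2375 in B.D(Chr5), against 3483, 3780.5 and 2709 in C57B/L6. Gp9, a platelet glycoprotein gene, read 293, 222 and 120.2 in B.D(Chr5), against 331, 254 and 223 in C57B/L6, a log2 change of -0.39 (limma adjusted p = 1.00). On C57B/L6 replicate 2 the median deviation was -0.024 for the macrophage genes and 0.037 for the megakaryocyte genes. The part of these cells in the values of the niche genes was not tested.

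Markers of other mature marrow cells had positive medians too. The plasma cell list had 8 positive log2 changes among 8 genes and a median of 0.31 (0 passed, 4 at an unadjusted p under 0.05), and their sum ran from 22546 to 27749 in B.D(Chr5) and from 20014 to 20762 in C57B/L6. For 9 genes of mast cells, basophils and eosinophils the median was 0.60 (0 passed, 6 at an unadjusted p under 0.05), with sums of 9715 to 17623 in B.D(Chr5) and 8827 to 9300 in C57B/L6. For 9 neutrophil genes it was 0.35 (0 passed, 5 at an unadjusted p under 0.05), with sums of 52881 to 73496 in B.D(Chr5) and 44124 to 49245 in C57B/L6. An unadjusted p under 0.05 was found for 4.73% of all tested probe sets. The mast cell, basophil and eosinophil list had median deviations of 0.73, -0.27 and 0.53 on the 3 B.D(Chr5) arrays. In that list Gzmb (log2 change -0.45) and Gata1 (-0.075) went the other way. B.D(Chr5) replicate 2 was highest and C57B/L6 replicate 2 lowest at once for 1 of the plasma cell genes and for 0 of the other two lists. Leading examples by p were Mzb1 and Xbp1 (log2 changes of 0.66 and 0.35), Fcer1a and Prg2 (1.38 and 0.96), and Camp and Ngp (0.65 and 0.45). The stem and progenitor list had a median of -0.12 (0 passed, 1 at an unadjusted p under 0.05), with Meis1 at -0.41 and Cd48 at 0.29, and the lineage antigens one of 0.24 (0 passed, 0 at an unadjusted p under 0.05), with Itgam at 0.37, Ms4a1 at 0.99, Cd3e at -0.24, Cd5 at -0.24 and Ptprc at -0.11. Ms4a1, the CD20 gene, read 304, 224 and 1113 in B.D(Chr5), against 164, 206 and 261 in C57B/L6, so that 1 array held its high value. Whether these cells bear on the niche genes was not tested either.

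The genes outside the list whose profiles lay closest to the median profile of the 10 were, in order, Esm1, Tnc, Rarres2, Serping1, Adipoq, Ibsp, Kitl and Cdh11. Their root mean square differences over the 6 arrays ran from 0.13 to 0.27 on the log2 scale, where the median over 10736 tested genes was 0.65 and the lowest 1% lay at or under 0.47. A gene with a flat profile would lie at 0.64. Not all members were near this median profile: Cxcl12 lay at 0.096 and Lpl at 0.21, but Col1a1 at 0.78, Sparc at 0.74 and Col3a1 at 0.65. Adipoq, the adiponectin gene of fat cells and of adipogenic stroma, read 203, 272 and 218 in B.D(Chr5), against 231, 42.6 and 115 in C57B/L6. Kitl, stem cell factor and the ligand of the KIT receptor, read 188, 216 and 157 in B.D(Chr5), against 157, 73.8 and 119 in C57B/L6. Cdh11, an osteoblast cadherin, read 101, 136 and 122 in B.D(Chr5), against 72.0, 18.2 and 74.7 in C57B/L6. As the 8 genes were picked for this closeness, their shared array order follows from the selection. Of the 8, 6 were also in the stroma, bone or matrix lists above, which held 12, 3 and 9 tested genes. Those lists were chosen with earlier results of these data known. None of the 8 passed the strain test, the smallest limma adjusted p being 0.904.

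**Figure D5:**
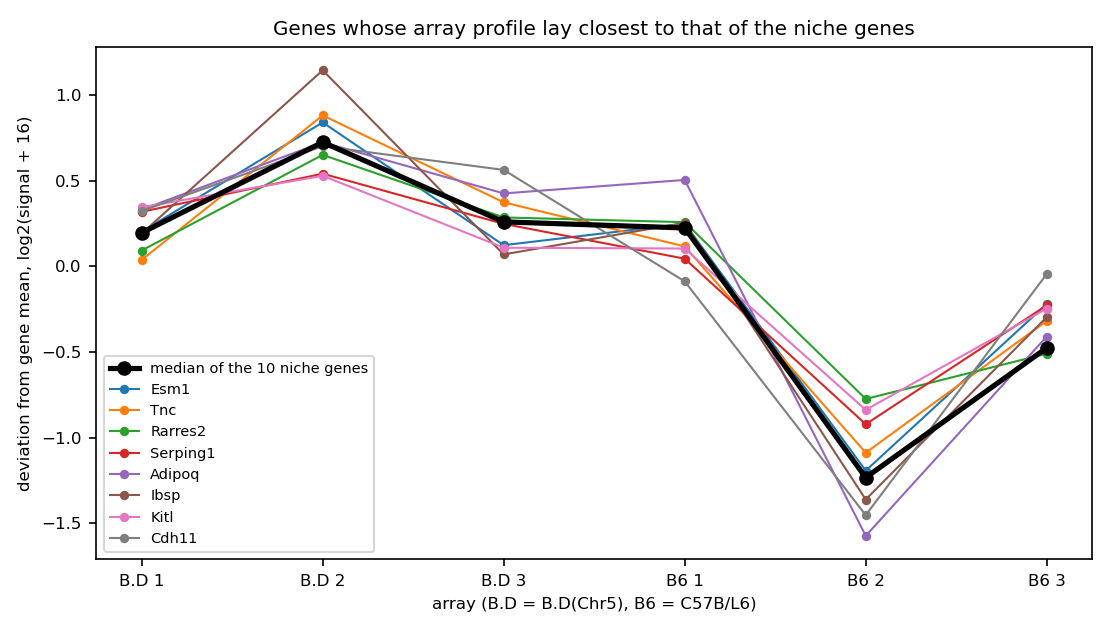
Deviation from the gene's own mean (log2(signal + 16) scale) on each array for the median of the 10 niche genes (black) and the 8 genes with the closest profile, with B.D(Chr5) arrays left and C57B/L6 arrays right. All 8 were picked for closeness to the niche gene median, so their extremes follow from the selection. They are lowest on C57B/L6 replicate 2 and highest on B.D(Chr5) replicate 2, where the niche gene median is -1.23 and 0.72.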

How the data were processed

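Bone marrow RNA was hybridised to 1-colour Affymetrix mouse arrays. The authors deposited linear intensities per probe set, for which the submitters' processing notes name MAS5. Its settings are not stated in what was used here. The files show a mean of 500.003 on every array after trimming 2% at each end. Of 45101 probe sets, 64 controls were left out; 34945 had 1 gene symbol in the platform annotation, 932 several and 9160 none, and 34741 of the first were found in RefSeq by gene identifier. Intensities became log2(signal + 16), which understates changes of dim probe sets. The upper 50% by mean signal were tested with limma 3.58.1 (R 4.3.3; lmFit, eBayes with trend, strain as the only term), two-sided, with Benjamini-Hochberg adjustment over all of them. The brightness cut, a mean signal of 69.4 over all arrays, could be met through 1 strain alone, as for Mmp13, Lepr, Tnc, Esm1, Rarres2 and Cdh11. The 3 arrays per strain limit precision. No pair of arrays held identical values (0 pairs). The fit was also run on simulated data with independent noise for each probe set. Such data cannot show how the fit behaves where 1 array moves many genes together. The brightest probe set stands for a gene; every member, and of each list the 2 genes of smallest p, are named. Other list genes named were picked after their values were seen. These were Kit, Ptprc, Cd3e, Cd5, Csf1r, Slc40a1, C1qb, Cd163, Mrc1, Apoe, Angpt1, Pdgfrb, Kitl, Cxcl14, Gzmb, Gata1 and those of single arrays or below background. The members and lists were chosen with earlier results of these data known. Alternatives covered the pseudocount, the brightness filter, scaling, trend, _x_at probe sets, averaging of probe sets, the replicate number and each array left out.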

Additional observations from a re-analysis of the deposited data

How the results depend on the processing

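Of 170 recomputed values of the 10 genes, 162 kept their direction and 8 turned sign. A test was run for 110 of them, of which 108 kept both direction and side of the threshold and 1 newly passed (Lpl, 1.42, without C57B/L6 replicate 1); the other 60 have no adjusted p. The turned values were those of Kdr and Col3a1 with single arrays left out, where they ranged from -0.19 to 0.53 and from -0.17 to 0.11, and, without both arrays numbered 2 (an alternative chosen after seeing the data), Kdr at -0.47 and Col1a2 at -0.041. The cause was not tested. The median log2 change of the 10 genes ranged from 0.47 to 1.21 with 1 array left out and was 0.23 without both arrays numbered 2. The count of probe sets that passed was 41; it was 70 with arrays centred on the median, 26 by eBayes without trend, 25 with the replicate number as a block, and 22 to 74 with 1 array left out, lowest without B.D(Chr5) replicate 1 and highest without B.D(Chr5) replicate 2. It was 23 and 24 without C57B/L6 replicate 2 and 3. The labels do not say whether the replicate numbers pair the samples. Same-numbered arrays had correlations of -0.11, -0.20 and 0.19 between their deviations. Of the B.D(Chr5) arrays, only replicate 3 correlated best with its own number. With 3 arrays per strain, these correlations cannot settle the pairing. The block changed no call of the niche genes. Values near the bacterial controls, as for Kdr, Col3a1 and Cdh5, limit what can be read from these genes.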
